A study of Chrysanthemum x morifolium with 6 samples.

Results

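A set of 258 transcript features of the chrysanthemum leaf was strongly raised after cold, out of 365669 features in the deposited table. The members were chosen by their measured levels in the same libraries that are described here. A member had a mean control level above 0 and below 1000 FPKM, a mean cold level of at least 100 FPKM, and a ratio of (cold mean + 1) to (control mean + 1) of at least 10. FPKM is the number of fragments per kilobase of feature and per unit of mapped library size. The difference between cold and control leaves is therefore a property of the choice and not a finding, and it is given as a description throughout.

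The plants were of the cultivar Jinba (Chrysanthemum x morifolium), a cut-flower chrysanthemum with a polyploid genome. The cold group had 3 libraries of leaf RNA, taken after 24 h at 4 °C and a further 4 h below freezing, at -4 °C. The control group had 3 libraries from leaves of plants kept in normal conditions. All plants had been raised from tissue culture for 30 days on MS medium, a salt and sugar medium, under a 16 h photoperiod at 25 °C by day and 22 °C by night, and had spent 5 days in pots. No library separates the chilling from the freezing step. The labels describe a mixture of 3 leaves for each treatment and 2 samples in total, while 6 libraries are listed. Whether the 3 libraries of a group came from separate plants is not given, so the spread between them may be technical.

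In the model plant Arabidopsis thaliana, chilling raises CBF/DREB transcription factors within hours. These factors bind the promoters of the COR (cold-regulated) genes, which code for dehydrins and other late embryogenesis abundant proteins that protect membranes and proteins when water leaves the cell. Other genes that are often raised code for enzymes that make galactinol, raffinose and proline, or that desaturate membrane lipids. Which of the 258 features, if any, belong to these families cannot be said here, because the features come as bare numbers, without names, sequences or positions. For the same reason the labelled tissue could not be checked against leaf markers, and no sequence is shown. Feature numbers are printed for the 2 members that were most abundant in cold, and the others are described by their rank.

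Together the members took 6.42%, 6.81% and 6.98% of the FPKM total in cold libraries 1 to 3, against 0.255%, 0.254% and 0.253% in control libraries 1 to 3. The mean share was 6.74% ± 0.290 in cold and 0.254% ± 0.00106 in control libraries (SD, n = 3 each). A set that makes up 0.0706% of all features thus held a visible part of the leaf transcript pool after cold. In bulk leaf RNA, more cells that express a feature and more RNA per cell cannot be told apart. The median member stood at 243, 256 and 244 FPKM in cold libraries 1 to 3 and at 9.41, 9.12 and 9.59 FPKM in control libraries 1 to 3. All 3 libraries of a group lay close together at the median.

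**Figure D1:**
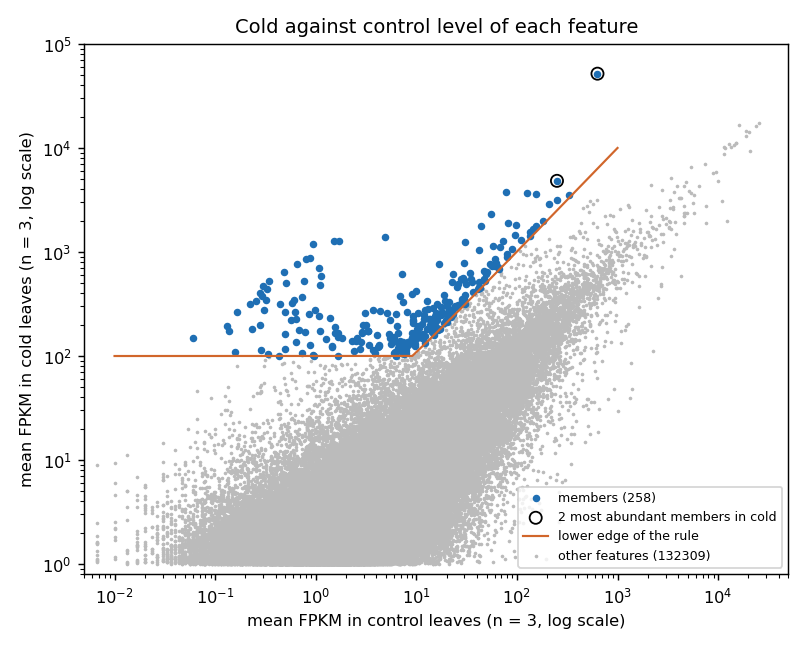
Mean FPKM in cold leaves (vertical) against mean FPKM in control leaves (horizontal), both on log scales, for features above 0 in control and at 1 FPKM or more in cold; each point is 1 feature. The 258 members lie above the line that marks the lower edge of the rule, and the circled pair are the members with 51825 and 4833 FPKM in cold leaves.

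The set was dominated by a single feature. Cluster-2961.153895 had 43625, 53546 and 58305 FPKM in cold libraries 1 to 3, against 694.9, 616 and 585 FPKM in control libraries 1 to 3. Its lowest cold value was 62.8 times its highest control value. It held 29.8% of the summed cold level of all members, and it ranked 1 among all features in cold and 304 in control leaves. On the log2(FPKM + 1) scale it was 6.35 ± 0.12 higher in cold leaves (SE), with a limma adjusted p of 2.64e-06, given as a description. Its 3 cold libraries differed more than those of most abundant members, with a coefficient of variation of 14.5%. Without it, the other members took 4.73%, 4.75% and 4.73% of the FPKM total in cold libraries 1 to 3 and 0.228%, 0.231% and 0.231% in control libraries 1 to 3. The differences in the members' share between cold libraries therefore rested on this 1 feature.

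The second most abundant member in cold was 10.7 times lower than the first. Cluster-2961.105459 had 4862, 4643 and 4995 FPKM in cold libraries 1 to 3, against 248, 306 and 196 FPKM in control libraries 1 to 3. On the same scale it was 4.29 ± 0.15 higher in cold leaves (SE), with a limma adjusted p of 1.78e-05. Its cold libraries agreed to a coefficient of variation of 3.68%, while its control libraries spread by 22.1%.

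The next 8 members by cold level had cold means between 1990 and 3758 FPKM and control means between 55.3 and 331 FPKM. Their log2 fold changes lay between 3.41 and 5.55. The member of rank 3 had 3002, 3820 and 4453 FPKM in the cold libraries, against 83.8, 81.5 and 69.5 FPKM in the control libraries. Like the most abundant member, it was lowest in cold 1 and highest in cold 3. The member of rank 4 had 3716, 3864 and 3616 FPKM in the cold libraries, against 112, 155 and 111 FPKM in the control libraries. The member of rank 9 had 2290, 2357 and 2300.2 FPKM in the cold libraries, against 50.2, 58.0 and 57.8 FPKM in the control libraries. Of the 10 most abundant members, 8 had a coefficient of variation under 4% among cold libraries, and those of ranks 1 and 3 did not.

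Many members entered the upper ranks of the transcript pool. Among the 100 most abundant features of cold leaves 15 were members, against 0 of the 100 most abundant features of control leaves. Among the 500 most abundant features these numbers were 67 in cold and 1 in control leaves, and among the 1000 most abundant they were 107 and 2. The median member ranked 1227 in cold and 34000 in control leaves. These ranks follow from the choice of members and describe how far they moved.

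The members started from very different control levels, which the working description of low-level transcripts covers only in part. A control mean below 1 FPKM was found for 45 members, 1 to 10 FPKM for 89, 10 to 100 FPKM for 111 and 100 FPKM or more for 13. The last 13 ranked between 304 and 2977 in control leaves, so they were abundant before cold. Over all features, 91.2% had a control mean under 10 FPKM, against 134 of the 258 members.

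**Figure D2:**
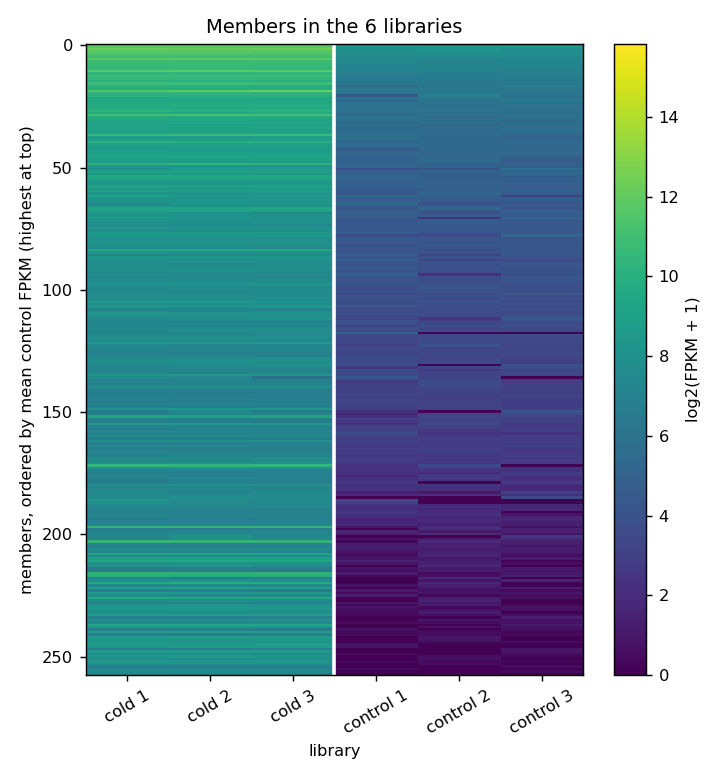
Levels of the 258 members as log2(FPKM + 1), 1 row per member ordered by mean control FPKM, with the 3 cold libraries on the left and the 3 control libraries on the right. The control side runs from a mean of 632 FPKM at the top to values listed at 0 at the bottom, while the cold side holds means of 100 FPKM or more throughout.

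The cold level did not follow the control level closely. The 45 members under 1 FPKM in control had a median cold level of 267 FPKM and a highest one of 1181 FPKM. The 89 members from 1 to 10 FPKM had a lower median cold level, 148 FPKM. The 111 members from 10 to 100 FPKM had a median cold level of 319 FPKM, and the 13 above them one of 2863 FPKM. Across all members, Spearman's rho between control and cold means was 0.53, and across the 45 members under 1 FPKM in control it was 0.085. Both are descriptions over features that share the same 6 libraries. In the upper classes the choice itself ties the levels, since a higher control level demands a higher cold level.

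The ratio of (cold mean + 1) to (control mean + 1) ran from 10.01 to 612, with a median of 18.8. It was under 20 for 135 members, 20 to 50 for 55, 50 to 100 for 27 and 100 or more for 41. The median ratio was 173 in the class under 1 FPKM in control, 26.4 from 1 to 10 FPKM, 13.4 from 10 to 100 FPKM and 11.96 above that. Of the 13 members at 100 FPKM or more in control leaves, the most abundant one had a ratio of 81.9 and the next highest ratio was 29.4. On the log2(FPKM + 1) scale the members' median fold change was 4.34, against -0.13 for all features tested. The constant of 1 holds down the ratios of members near 0.

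The 3 members with the highest ratios were all near absence in control leaves. The first had 1205, 1167 and 1172 FPKM in the cold libraries, against 1.46, 0.34 and 0.99 FPKM in the control libraries. The second had 1297, 1289 and 1236 FPKM in the cold libraries, against 0.19, 2.74 and 1.65 FPKM in the control libraries. The third had 865, 884 and 838 FPKM in the cold libraries and was listed at 0, 2.4 and 0 FPKM in control libraries 1 to 3. For these the cold level is well measured and the size of the ratio is not, because it rests on control values near the bottom of the scale.

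At the other end, the 3 members with the lowest ratios had ordinary control levels. The lowest had 183, 188 and 177 FPKM in the cold libraries, against 17.9, 16.0 and 18.2 FPKM in the control libraries, a ratio of 10.01. The second lowest had 153, 159 and 164 FPKM in the cold libraries, against 13.7, 12.8 and 18.3 FPKM in the control libraries. The third lowest had 228, 211 and 192 FPKM in the cold libraries, against 19.2, 20.3 and 20.8 FPKM in the control libraries. The first 2 features just under the ratio of 10 looked alike, with means of 181 and 160 FPKM in cold leaves, against 17.2 and 15.2 FPKM in control leaves, and ratios of 9.99 and 9.97.

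The other thresholds also cut through a continuum. The 2 members with the lowest cold means had 100.1 and 100.2 FPKM in cold leaves, and the 2 features just below had 99.8 and 99.7 FPKM. Below the threshold on the cold level, 160 further features reached a ratio of 10 with a cold mean of 50 to 100 FPKM and 225 with one of 20 to 50 FPKM. The lowest control mean among members was 0.06 FPKM, carried by 0.18 FPKM in control 2 alone. Beyond that edge, 21 features were listed at 0 in all control libraries and had 102 to 507 FPKM in cold leaves. No feature at 1000 FPKM or more in control leaves reached a ratio of 10.

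All 258 members passed the filter on low values, as their cold level requires. In the limma fit over 153985 features all 258 were called higher at an adjusted p under 0.05, where 15.8% of all tested features were called higher. The cold libraries lay above the control libraries without overlap in all 258 members, as in 21.9% of all tested features. The choice used this contrast, so neither count is evidence about the members. The highest adjusted p, 0.0268 (limma), belonged to a member with 204, 162 and 56.2 FPKM in the cold libraries, against 18.6, 8.47 and 0 FPKM in the control libraries. Its lowest cold value was 3.01 times its highest control value, the smallest such gap of all members. In 218 members the lowest cold value was at least 10 times the highest control value.

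The spread between libraries was not used in the choice. Among cold libraries the members' median coefficient of variation was 3.71%, close to the 4.08% of the other 3239 features at 100 FPKM or more in cold leaves. It was under 10% for 230 members and 20% or more for 15. The steadiest member had 1282, 1285 and 1282 FPKM in the cold libraries, against 68.8, 69.5 and 77.4 FPKM in the control libraries. Cold library 2 held the highest value in 38.4% of members and in 39.5% of the other features at that level. For cold libraries 1 and 3 the shares were 31.8% and 29.8% of members, beside 31.7% and 28.8% of the other features.

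Among control libraries the same members spread far more, with a median coefficient of variation of 20.7% against 5.85% for the other features at 100 FPKM or more in cold leaves that are above 0 in control. The spread was larger among control than among cold libraries in 246 of the 258 members. It followed the level. The median was 102% under 1 FPKM in control, 26.9% from 1 to 10 FPKM, 14.5% from 10 to 100 FPKM and 8.96% above that. For features outside the set at those control levels the medians were 93.7%, 35.4%, 12.02% and 5.37%. The members' control spread thus lay on both sides of that of other features of like level, and no test was made.

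**Figure D3:**
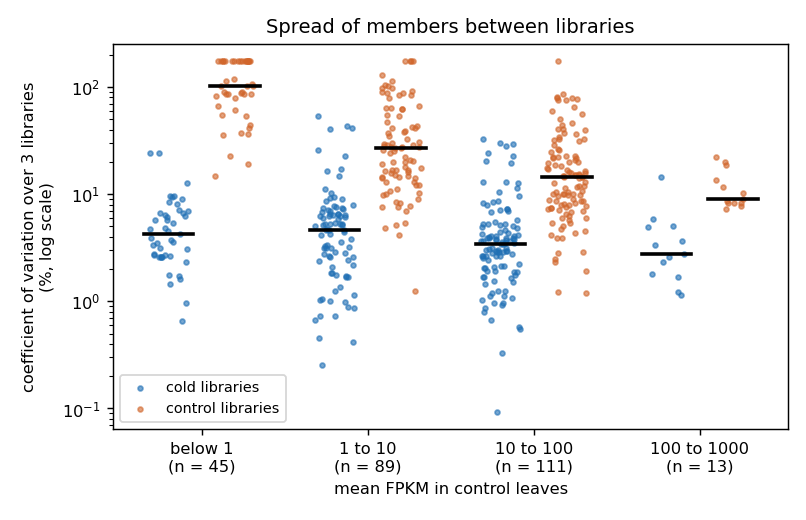
Coefficient of variation over 3 libraries (%, log scale) for each member, by class of mean control FPKM, with cold libraries in blue on the left and control libraries in orange on the right of each class; black bars are medians. The cold medians stay between 2.75% and 4.65% in every class, while the control medians run from 102% in the lowest class to 8.96% in the highest.

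Values listed at 0 were part of this. In control leaves 216 members were above 0 in all 3 libraries, 19 were listed at 0 in 1 library and 23 in 2 libraries. For those 23 the whole control mean came from 1 library, whose value was 0.18 to 31.8 FPKM. Their cold means lay between 110 and 863 FPKM. One of them had 171, 150 and 171 FPKM in the cold libraries and was listed at 31.8, 0 and 0 FPKM in control libraries 1 to 3, which shows that a listed 0 can stand beside a substantial value in the same group.

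The choice was repeated without each library in turn. The library left out belongs to the same group as those kept and may be a technical replicate of them. The values below therefore describe agreement between libraries and are no independent check of the members. Without cold 1 the rule found 254 features, and their values in cold 1 ran from 82.8 to 43625 FPKM with a median of 243 FPKM, so 247 of them reached 100 FPKM there. Without cold 2 it found 256, of which 247 reached 100 FPKM in cold 2, and without cold 3 it found 259, of which 248 did so in cold 3. The control mean that served in the choice also served to judge the ratio. On that basis, 96.5% to 98.0% of the features so chosen had a ratio of at least 10 in the cold library left out. For a control library left out, 91.2% to 93.8% had that ratio. Single libraries thus met the threshold slightly less often on the control side, and the cause was not tested. The mean ratio of 22 members moved by over 1.5 times when 1 library was left out.

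All 258 members carried the number of the largest component, the first number in a feature's name. That component holds 81.9% of all features, but it also holds all 3497 features at 100 FPKM or more in cold leaves, so the members do not stand apart in this. The sources used here do not say what the second number stands for, and it may itself have been set from the reads of these libraries. It ran up to 299530 in this component and from 20150 to 284146 among members.

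Members were spread along these numbers in another way than abundant features as a whole. In bands of 20000 numbers, chosen after the values were seen, the features at 100 FPKM or more in cold leaves piled up in the middle, with 2850 of 3497 between 120000 and 180000. Of the members, 83 lay there. The band from 20000 to below 40000 held 37 members among 53 such features (69.8%), and the band from 260000 to below 280000 held 27 among 37 (73.0%). The last band, above these, held 5 members among 6 such features. Over the whole component the share was 7.38%. The band from 140000 to below 160000 held more members, 40, but these were 2.08% of its 1923 features at that level. In control leaves, 2131 features of this band reached 100 FPKM, against 2 in the band from 20000 and 0 in that from 260000. Nearly all features at 100 FPKM in cold leaves in those 2 bands had thus risen from lower control levels. The shares of members therefore follow in part from the rule, and bands were not compared at like control level.

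**Figure D4:**
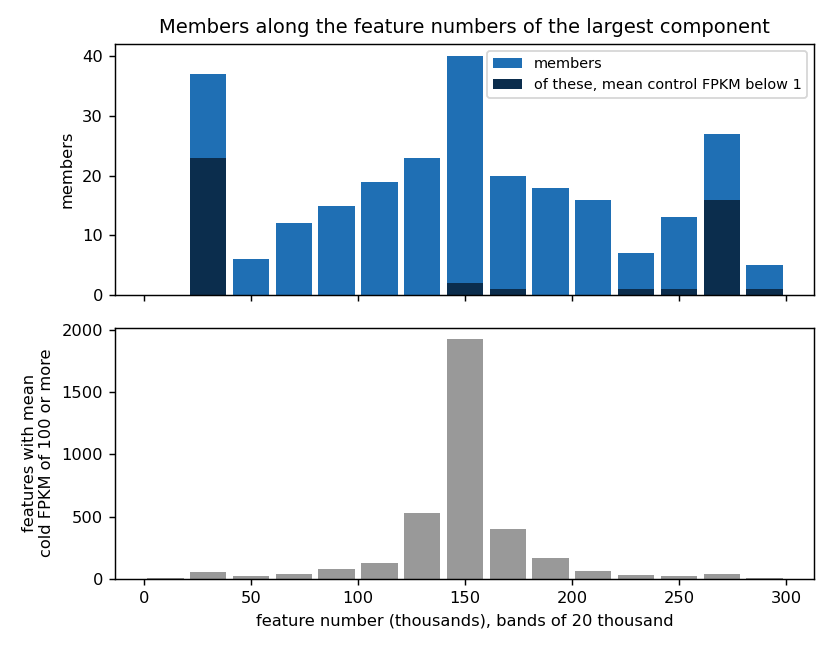
Number of members (upper panel, those with a mean control FPKM below 1 in dark blue) and number of features with a mean cold FPKM of 100 or more (lower panel) in bands of 20000 feature numbers. Members at the lowest control levels stand in the bands from 20000 and from 260000, with 23 and 16 of 45, while abundant features peak with 1923 in the band from 140000.

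The members that were near absence in control leaves were concentrated at these flanks. Of the 45 members under 1 FPKM in control, 39 lay in these 2 bands. So did 18 of the 21 features that reached 100 FPKM in cold leaves and were listed at 0 in control leaves. How all other features under 1 FPKM in control were spread over the bands is not given here for comparison. Within the lower band, 32 of the 37 members had numbers below 24000. They had a median of 266 FPKM in cold and 0.65 FPKM in control leaves. The 1444 tested features with these numbers, members or not, had a median log2 fold change of 0.82, and none of the features with these numbers reached 100 FPKM in control leaves. In the rest of that band there were 5 members, and the median log2 fold change of tested features was -0.042. The upper flank had a similar shape. A stretch of 9000 numbers that starts in the upper band held 25 members, and its tested features had a median log2 fold change of 0.74. The numbers of that band before the stretch held 7 members, with a median of -0.042. Both stretches were chosen after the values were seen.

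Members also stood side by side. Of the 258 members, 58 formed 22 runs of consecutive numbers, 13 of them pairs, and 200 stood alone. The longest run held 7 members. Its features had 108 to 777 FPKM over the cold libraries and 2.06 to 19.3 FPKM over the control libraries. Their cold levels differed by 6.94 times, but their ratios lay between 32.9 and 50.4. The strongest of the 7 had 763, 762 and 777 FPKM in the cold libraries, against 18.9, 12.4 and 19.3 FPKM in the control libraries. The edges were abrupt. The feature before the run had a mean of 4.95 FPKM in cold and 5.04 FPKM in control leaves, and the feature after it had 15.1 FPKM in cold and 27.9 FPKM in control leaves. Of the 20 features within 10 numbers of the run, none had a ratio above 3.49.

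A stretch of 32 numbers in the band from 20000, found by searching for the most members within 40 numbers, held 12 members. They had 105 to 1274 FPKM in cold and 0.13 to 1.53 FPKM in control leaves, with ratios of 68.7 to 612. The member with the highest ratio of all closed this stretch. Between the members lay 4 features listed at 0 in control leaves with over 100 FPKM in cold leaves, and 4 with 20 to 100 FPKM in cold leaves. The other 12 features of the stretch were under 10 FPKM in cold leaves. Of the 24 tested features of the stretch, 22 were called higher (limma), where 15.8% of all tested features were. In the band of 1000 numbers that holds the stretch, 37.1% of tested features were called higher. The 12 members are among these 22 and were chosen on this contrast. As the stretch was chosen for its members, the count is a description only.

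**Figure D5:**
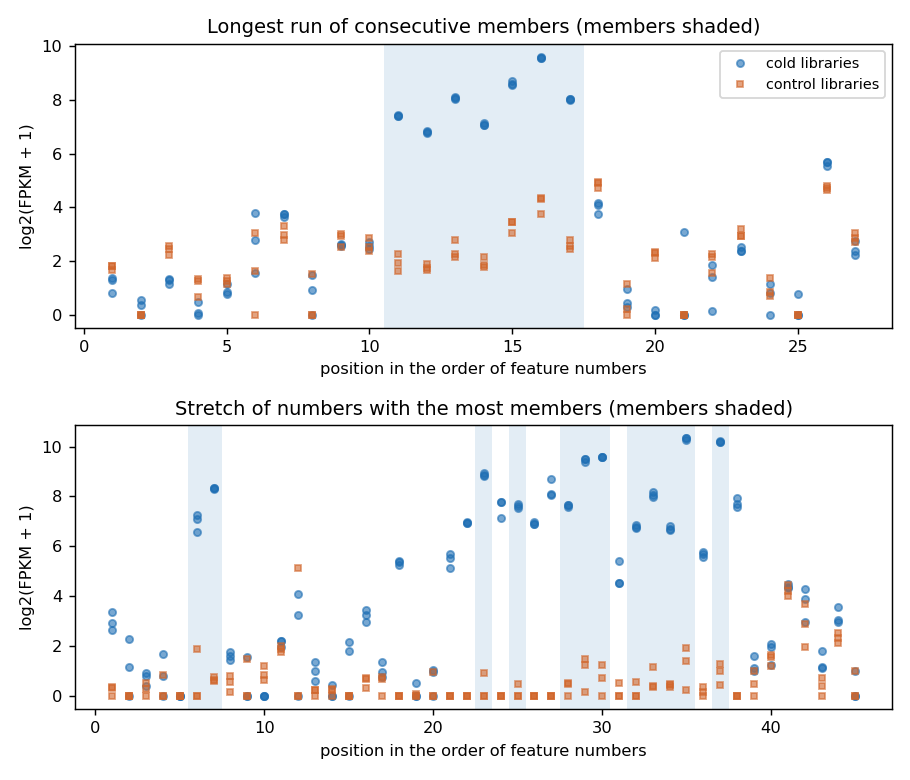
Values in the 6 libraries as log2(FPKM + 1), cold libraries as blue circles and control libraries as orange squares, along the order of feature numbers around the longest run of members (upper panel) and the stretch with the most members (lower panel); members are shaded. In the upper panel 7 neighbours share a similar gap and end abruptly on both sides. In the lower panel 12 members stand among other features, of which some are listed at 0 in control leaves and most are not.

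Ratios within runs lay somewhat closer together than those of members far apart in number, a difference that was not tested. The highest ratio of a run was at most 2 times the lowest in 14 of 22 runs, with a median of 1.53 times and a range of 1.05 to 7.85 times. Ratios within 2 times of each other were common in the whole set, as 135 members had a ratio between 10 and 20. Members with consecutive numbers differed by a median of 0.48 in the log2 of the ratio (36 pairs), and members next in order but over 100 numbers apart by 0.69 (168 pairs). Of the 42 features that flank the runs, 25 had a ratio under 2 and 4 had one of at least 10.

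The features next in number were counted only outside the set, so those that met the rule were left out by the choice itself. The numbering may also come from the same reads. The members had 436 such neighbours outside the set, of which 258 were tested. Of these, 105 (40.7%) were called higher and 46 (17.8%) lower in cold leaves, where 15.8% of all tested features were called higher and 19.8% lower (limma, adjusted p under 0.05). Their median log2 fold change was 0.36. A ratio of at least 10 was reached by 36 of the 436. Around the 1682 other features that were called higher and had 100 FPKM or more in cold leaves, 33.7% of tested neighbours were called higher and 20.8% lower. Around all 23306 other features of the component that were called higher, these shares were 30.1% and 15.3%. Such other raised features were kept as neighbours of each other, whereas members were left out as neighbours throughout. The shares around members and around other raised features are thus not like measures at any distance. Up to 5 numbers away the shares called higher lay closer together, at 25.6% around members, 24.2% around the other raised features at 100 FPKM or more in cold leaves and 20.5% around all other raised features. The share around members also depended on the filter on low values. Directly beside members it was 25.8% (107 of 414) without a filter, where 7.37% of all tested features were called higher, and 52.5% (74 of 141) at a mean of at least 5 FPKM, where 27.0% were. At the filter of 1 FPKM all these shares lie above the 16.4% of tested features called higher in the whole component. The difference between the members and the other raised features was not tested. Neither 15.8% nor 16.4% is a local background. In bands of 1000 numbers, 36.5% to 42.2% of tested features were called higher in the lower flank stretch described above. In the upper flank stretch 24.1% to 43.2% were, members included in both. Many members lie in these stretches, and whether the share beside members exceeds the local share was not tested.

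Strong rises outnumbered strong falls at this level. The mirror rule, with a control mean of at least 100 FPKM, a cold mean above 0 and below 1000 FPKM and a ratio of at least 10 in the other direction, found 96 features, against 258 raised ones. The balance kept its direction with 3 other scalings of the libraries, at 293 against 76 by the median of ratios, 264 against 90 by equal sums and 260 against 105 by quantile normalization. As no sample-level test of such counts was made, they are given as a description. Over all tested features, more were called lower (19.8%) than higher (15.8%) in cold leaves (limma, adjusted p under 0.05).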

How the data were processed

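The authors deposited 1 table of FPKM values, rounded to 2 decimals, for 3 cold and 3 control leaf libraries. RNA was extracted with Trizol and libraries were made with an Illumina TruSeq kit, per the labels' protocols; an Iso-Seq library was not analysed here. Bowtie2 2.0.6 and TopHat2 2.0.12 are named per the submitters' processing notes without a role; the sources used here do not give the reference, the counter or the way features were built. FPKM sums ran from 2577065 to 2589509 in the cold libraries and from 2615325 to 2648484 in the control libraries; depth is unknown, so no counting interval is given. Features can split or share reads of near-identical gene copies.

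The members were found on the deposited FPKM values. Features with a mean of at least 1 FPKM over the 6 libraries were fitted as log2(FPKM + 1) with limma 3.58.1 in R 4.3.3. The fit was two-sided, with a trend of the prior variance on the mean and without a block. Its p-values were adjusted by Benjamini-Hochberg over 153985 features. It was also run on simulated data with independent noise and 200 features changed, far fewer than were called here. Fold changes on the log2(FPKM + 1) scale understate changes near 0. Coefficients of variation are SD over mean of 3 libraries. The members and the tests were chosen with earlier results of these data known. The 2 features printed by number are the members with the highest cold means. The bands, runs and the mirror rule were chosen after the values were seen. No gene list could be applied. Same-numbered libraries did not deviate together from their group means (r of -0.012 to -0.0022), so the numbers were not taken as pairs.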

Additional observations from a re-analysis of the deposited data

How the results depend on the processing

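The count of members moved with the thresholds that define it, to 459 at a ratio of 5, 123 at a ratio of 20, 418 at a cold mean of 50 FPKM and 156 at 200 FPKM, and stayed between 235 and 293 under the other scalings, constants and medians and between 243 and 259 without 1 library. The members called higher (limma) numbered 258 in every alternative run except 2 kinds, with 255 at a pseudocount of 0.1 and 255 to 257 without 1 library; the 3 members that lost the call when some library was left out each had a control library listed at 0. With the replicate number as a block (replicate block) all 258 kept the call and 95 neighbours were called higher, against 105 without it; counting neighbours up to 5 numbers away gave 301 of 1178. The members' share of the cold total was 4.73% without the most abundant member, chosen after seeing the data. The features chosen anew without 1 library held 6.56% to 6.86% of the total in the cold libraries kept. The median coefficient of variation was 2.62% to 3.38% among cold and 16.1% to 18.0% among control libraries with 1 library left out. These values rest on 2 libraries, where the median tends to be lower than over 3, so the 2 kinds cannot be compared directly. After quantile normalization it was 21.8% among control libraries, and the cause was not tested. The median of ratios moved the median log2 fold change of all features from -0.13 to 0.0085; relative to it the members' median was 4.47 as deposited and 4.34 to 4.48 under the other scalings. The log2 fold change of Cluster-2961.153895 ranged from 5.87 to 6.52 and that of Cluster-2961.105459 from 4.13 to 4.51. The 2 flanking bands, also chosen after seeing the data, held 24.8% of the members as given. They held 107 (25.7%) at a cold mean of 50 FPKM and 37 (23.7%) at 200 FPKM. Runs, likewise chosen after seeing the data, held 22.5% of the members as given. With numbers up to 5 apart they held 77 members (29.8%), and at a cold mean of 50 FPKM they held 100 members (23.9%). Depth is unknown, so the counting error of control values near 0 cannot be set apart.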
